A study of Mus musculus with 6 samples.

Results

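The S100 proteins are small calcium sensors, and 10 of their genes were followed here in a mouse mammary tumour cell line: S100a1, S100a4, S100a6, S100a8, S100a9, S100a10, S100a11, S100a13, S100a14 and S100a16. The members were found by gene symbol in the platform annotation. Each of the 10 genes had 1 probe, so the family takes 10 of 25697 probes, and 10 of 16561 named genes, on the array. The cells are TUBO, an epithelial line derived from 1 mammary carcinoma of a BALB-neuT female, a transgenic strain whose oncogene is driven by a mammary tumour virus promoter. All 6 arrays carried total RNA of TUBO cells grown attached to plastic, and no array carried normal mammary tissue or floating spheres. The titles split them into 3 arrays named TMA and 3 named TDA. Read through their titles and the growth protocol, TMA cells were kept without serum in DMEM-F12 with bFGF and EGF (each at 20 ng/ml), insulin (5 μg/ml) and bovine serum albumin (0.4%), and TDA cells in DMEM with fetal calf serum at 20%. The source names give each group the other medium. Groups are therefore called by title, a difference is always TMA minus TDA, and which medium goes with a direction is not settled. Nothing in the labels says whether the 3 arrays of a group were separate cultures, so p-values measure only the spread between these arrays, which may be technical.

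Most S100 proteins form dimers, bind calcium through a pair of EF-hand loops and then expose a surface that docks onto other proteins, among them annexins, cytoskeletal proteins and enzymes. S100a10 is an exception, since its loops no longer bind calcium and it is held in an open shape as the partner of annexin A2 at the inner face of the plasma membrane. Some members also leave the cell and act on the receptors RAGE and TLR4. In epithelial tumours the family is known for S100A4, a promoter of motility and metastasis, and for the S100A8 and S100A9 pair, which is abundant in neutrophils and is also made by stressed or inflamed epithelium.

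The members lie together on mouse chromosome 3. In RefSeq's table for GRCm38.p6 their order is S100a1, S100a13, S100a14, S100a16, S100a4, S100a6, S100a8 and S100a9, and then, after 56 other protein-coding genes, S100a11 and S100a10. S100a1 and S100a13 are transcribed away from each other, with RefSeq starts that lie 105 bases apart. Their promoter windows, each 300 bases with 250 before the start and 50 after it, share 204 bases. The S100a1 window is printed because S100a1 changed while its divergent neighbour did not pass the test. It lies at chr3:90514281-90514580 on the minus strand of GRCm38.p6, is taken from RefSeq, and shows in capitals the bases that the S100a13 window holds too.
S100a1: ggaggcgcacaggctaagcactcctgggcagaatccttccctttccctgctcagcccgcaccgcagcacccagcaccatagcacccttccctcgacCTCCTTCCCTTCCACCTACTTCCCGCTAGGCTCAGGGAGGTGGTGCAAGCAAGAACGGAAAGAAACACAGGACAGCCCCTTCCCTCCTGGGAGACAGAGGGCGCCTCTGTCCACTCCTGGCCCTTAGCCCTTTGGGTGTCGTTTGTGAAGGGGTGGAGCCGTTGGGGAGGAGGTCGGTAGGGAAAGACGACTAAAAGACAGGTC
Of the 10 members, 8 had windows in the RefSeq promoter table, 9 windows in all because S100a16 had a pair. S100a10 and S100a14 had none there. The S100a1 window is 61% G or C and holds 11 CpG dinucleotides, and the S100a13 window 59.3% and 14, against medians of 52.7% and 7 over 32851 mouse windows of the same length. Both strands were searched for TATAAA, the core of a TATA box, and neither window of that pair holds it. TATAAA stands in the windows of S100a4, S100a8 and S100a9, and 13.6% of all windows hold it. It begins 31 and 30 bases before the start in S100a4 and S100a8, but at the start itself in S100a9. The AP-1 letters TGAGTCA stand in the S100a11 window at 2 places and in no other member window, while 5.2% of all windows hold them. These matches describe letters only and say nothing of factor binding.

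The series as a whole was read from 12848 probes whose mean log2 signal over all 6 arrays lay above the median of all probes, 7.01. Signals here are normexp-corrected intensities plus an offset of 50, quantile-normalized between arrays, on the log2 scale, so differences of dim probes are understated. Mean raw intensity per probe was 560 to 635 on 5 arrays and 845 on TDA1. On the first principal component, which held 45.6% of the variance, TMA1 at -5.74 lay nearest to the TDA arrays, which ran from 20.4 to 28.9. No detection p-values were at hand, so no probe could be called above background. Precision is limited by the number of arrays, and levels of different probes are not comparable with each other.

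Of the 10 S100 members, 9 entered the test and 2 of them passed it: S100a1 rose and S100a10 fell on the TMA arrays. The same fit called 3.01% of all tested probes and, taking the highest-mean probe of each named gene, 3.42% of genes. Of named genes, 1.72% were called higher and 1.71% lower. The other 7 tested members had unadjusted p of 0.278 or more and groups that overlapped. S100a9 lay below the filter on low signals and has values but no test. The median log2 difference over the 9 tested members was -0.07, beside -0.0047 over all 8964 tested genes.

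**Figure D1:**
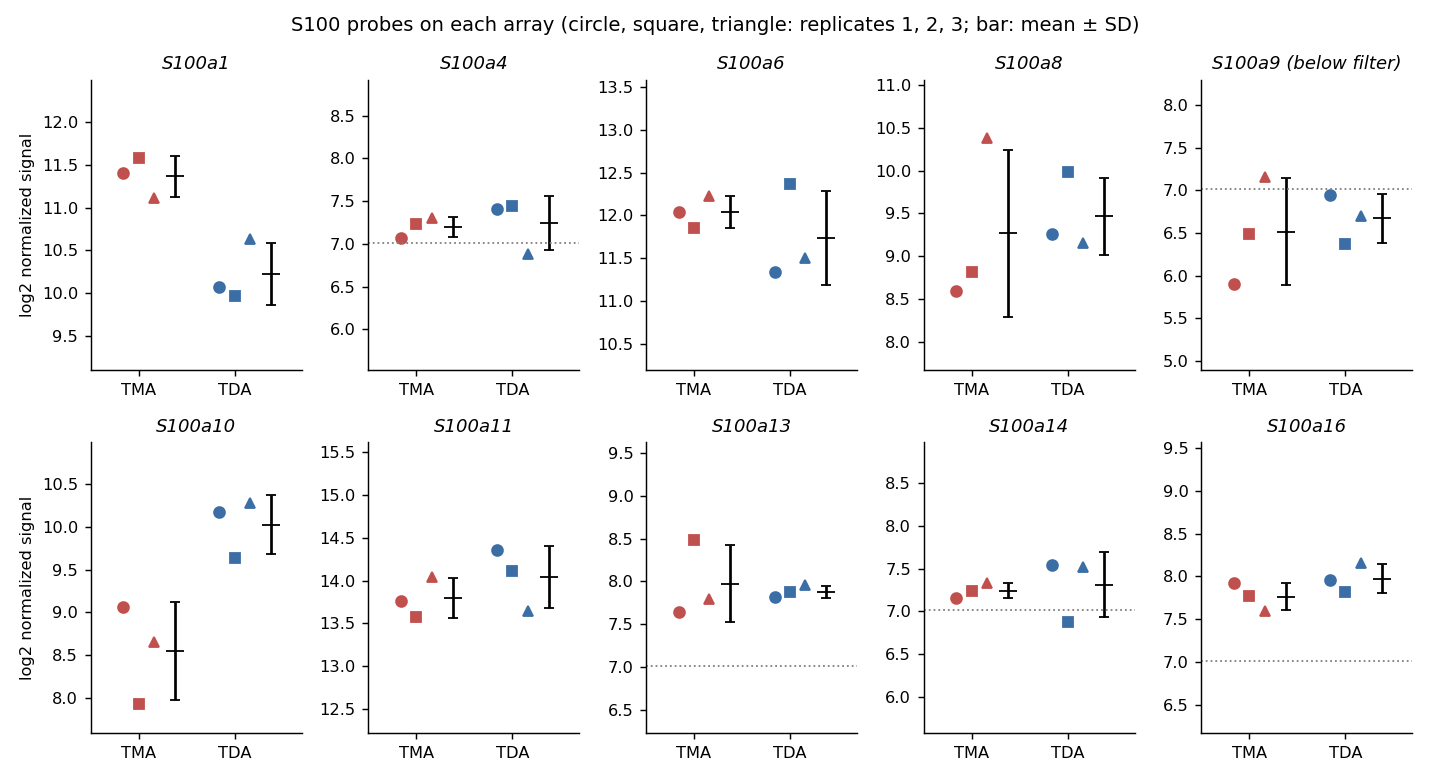
Each panel plots 1 S100 probe, with log2 normalized signal on the vertical axis (every panel spans the same range of log2 units) and the 3 TMA and 3 TDA arrays as points; black bars give the group mean ± SD and the dotted line is the filter at 7.01. Only S100a1 and S100a10 have groups that do not overlap, and the replicates of S100a8 spread widest.

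S100a1, best known as a calcium sensor of heart and skeletal muscle that regulates calcium release channels, was higher on every TMA array. Its log2 signal was 11.41, 11.58 and 11.11 on TMA arrays 1 to 3 against 10.08, 9.96 and 10.64 on TDA arrays 1 to 3. The lowest TMA array thus lay above the highest TDA array, and TDA3 came closest to the TMA group. The raw intensities, before any correction, were 2832, 3086 and 2372 against 1803, 1029 and 1356 in the same order, and here too the groups stood apart. The means were 11.37 ± 0.24 and 10.22 ± 0.36 (log2, SD, n = 3 each), a difference of 1.14 with a standard error of 0.23, or 2.21-fold with a 95% interval from 1.55 to 3.14 (limma adjusted p = 0.0253). Groups that do not overlap are common here, at 23.8% of all tested genes.

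S100a10, the light chain that ties annexin A2 into a membrane-bound complex and recruits plasminogen and ion channels to the cell surface, was lower on every TMA array. Its log2 signal was 9.06, 7.93 and 8.66 on TMA arrays 1 to 3 against 10.17, 9.64 and 10.27 on TDA arrays 1 to 3. The groups did not overlap, and TMA2 was the lowest array by a wide step. Raw intensities were 687, 373 and 588 on the TMA arrays against 1911, 853 and 1079 on the TDA arrays, the highest being on TDA1, the array with the brightest mean. The means were 8.55 ± 0.57 and 10.03 ± 0.34 (log2, SD, n = 3 each), so S100a10 fell by 1.48 on the log2 scale with a standard error of 0.29, and TDA signal was 2.79 times TMA signal (limma adjusted p = 0.0219). The 95% interval of the log2 difference ran from -2.10 to -0.85.

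Both calls were lost when certain single arrays were left out. In limma, S100a1 no longer passed when TMA2, TMA3 or TDA1 was left out, with adjusted p of 0.1307, 0.0909 and 0.1298 and differences of 1.03, 1.27 and 1.07. S100a10 lost its call without any of these or without TDA3, with adjusted p of 0.0999, 0.111, 0.119 and 0.0715 and differences of -1.17, -1.53, -1.41 and -1.35. The number of probes called over the whole array fell at the same time, from 387 to 21, 3, 8 and 112 without TMA2, TMA3, TDA1 and TDA3. The direction of both genes was kept in each of 18 other settings, with differences between 0.995 and 1.35 for S100a1 and between -1.73 and -1.17 for S100a10. In the authors' deposited table of log2 values the differences were 0.995 and -1.17, and the limma adjusted p of 0.0607 and 0.0558 missed the threshold. With median scaling in place of quantiles it was missed as well, at 0.0593 and 0.0533, and without background correction S100a10 missed it at 0.0508.

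**Figure D2:**
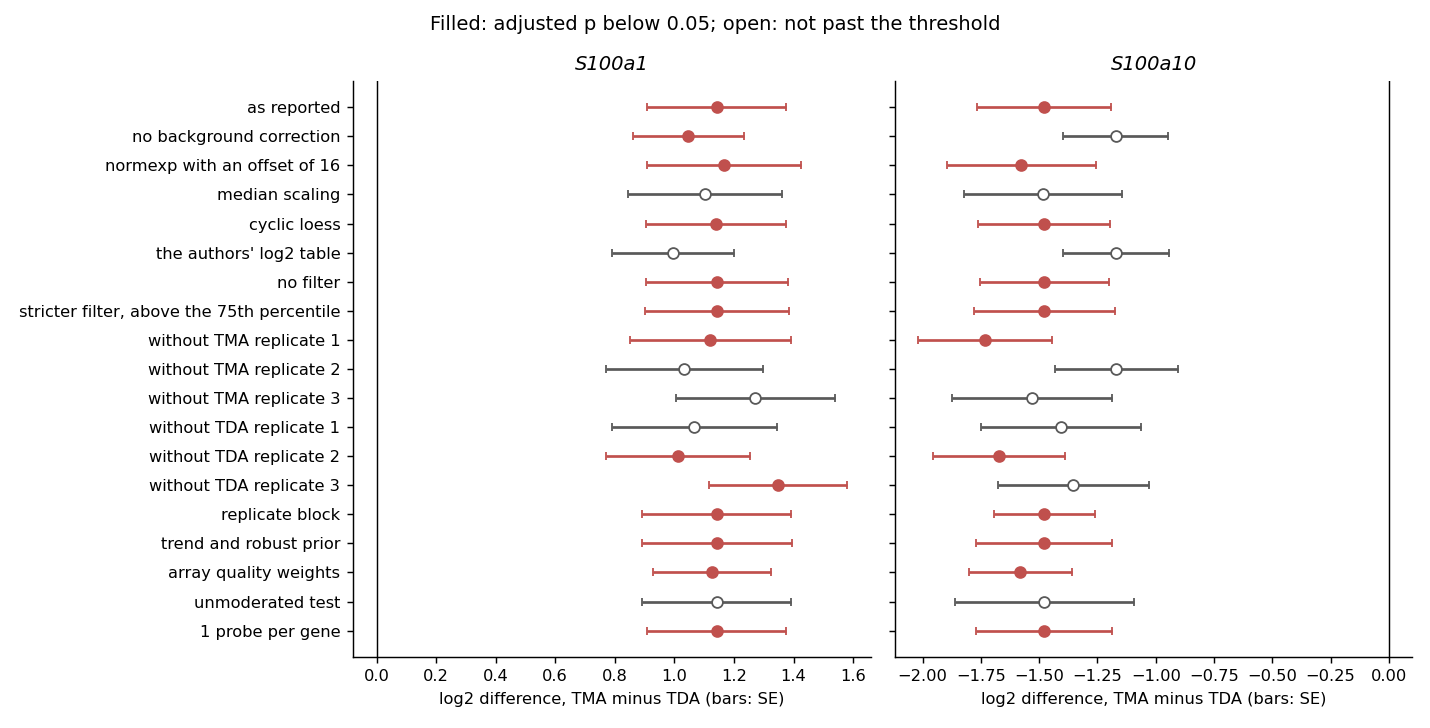
The plot gives the log2 difference (TMA minus TDA, horizontal axis, bars are standard errors) of S100a1 and S100a10 as reported and in 18 other settings, 1 a line; filled points have a limma adjusted p under 0.05. No difference crosses 0, while 6 of 18 points for S100a1 and 8 of 18 for S100a10 are open.

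The membrane partner of S100a10 did not show a fall of that size. Anxa2, the gene of annexin A2, read 13.38, 13.08 and 13.69 on TMA arrays 1 to 3 against 13.69, 13.77 and 13.67 on TDA arrays 1 to 3 (log2). TMA3 lay within the TDA values and the other TMA arrays below them. The log2 difference was -0.33 (limma adjusted p = 0.455). The gap between the difference of S100a10 and that of Anxa2 was -1.15, and the per-array log2 ratio of the pair was lower on every TMA array (exact permutation test over arrays, two-sided, p = 0.1, the smallest that 3 against 3 arrays can give). This pair was chosen after its values were seen. Plg and Plat, the genes of plasminogen and its tissue activator, lay below the filter.

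S100a11, which binds annexin A1 and takes part in membrane repair and growth control, is the chromosomal neighbour of S100a10. Its log2 signal was 13.76, 13.57 and 14.04 on TMA arrays 1 to 3 against 14.36, 14.11 and 13.65 on TDA arrays 1 to 3. The groups overlapped, with TDA3 below TMA1 and TMA3. The log2 difference was -0.25, with a 95% interval from -0.75 to 0.26 (limma adjusted p = 0.642). It was -0.0875 without TDA1, -0.14 without TMA2, -0.37 without TMA3 and -0.44 without TDA3. In the authors' deposited table it was -0.39, with groups that did not overlap and no call. The difference of S100a10 minus that of S100a11 was -1.23 on the log2 scale. Their per-array ratio was lower on every TMA array (exact permutation test, two-sided, p = 0.1, again the smallest possible). This pair too was chosen after its values were seen.

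S100a13, which is known for helping fibroblast growth factor 1 leave the cell without a signal peptide, starts beside S100a1 as printed above. It read 7.64, 8.48 and 7.79 on TMA arrays 1 to 3 against 7.81, 7.87 and 7.95 on TDA arrays 1 to 3 (log2). TMA2 alone stood above the TDA arrays and the other TMA arrays lay just under them. The log2 difference was 0.09, with a 95% interval from -0.42 to 0.61 (limma adjusted p = 0.890), and without TMA2 it was -0.16. The log2 ratio of S100a1 to S100a13 was 3.77, 3.10 and 3.31 on the TMA arrays against 2.26, 2.09 and 2.68 on the TDA arrays, higher on every TMA array, with group means 1.05 apart on the log2 scale. With 3 arrays a side the exact permutation test, two-sided, gave p = 0.1, its smallest value, and over these 3 gene pairs, chosen after their values were seen, the adjusted p was 0.1 for each.

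S100a6, or calcyclin, which binds the ubiquitin ligase component CACYBP and is induced when quiescent cells are stimulated to grow, did not pass the test. It read 12.04, 11.86 and 12.23 on TMA arrays 1 to 3 against 11.34, 12.37 and 11.50 on TDA arrays 1 to 3 (log2). TDA2 exceeded all TMA arrays, whereas TDA1 and TDA3 lay below them. The log2 difference was 0.30, with a 95% interval from -0.28 to 0.88 (limma adjusted p = 0.616). Without TDA2 the difference was 0.62, and without TDA1 and TDA3 it was 0.10 and 0.185, all short of the threshold.

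S100a8, one chain of the heterodimer calprotectin, varied more between replicates than between groups. It read 8.59, 8.82 and 10.39 on TMA arrays 1 to 3 against 9.26, 9.98 and 9.15 on TDA arrays 1 to 3 (log2). TMA3 was the highest of all 6 arrays and TMA1 and TMA2 the lowest, so the TDA arrays lay between. The SD was 0.98 in the TMA group and 0.45 in the TDA group (n = 3 each), and the log2 difference was -0.20, with a 95% interval from -1.07 to 0.67 (limma adjusted p = 0.856). On the linear scale that interval ran from 0.475-fold to 1.597-fold. Without TMA3 the difference was -0.76, and without TMA1 it was 0.14, neither past the threshold.

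S100a9, the other chain of calprotectin, gave a dim probe in this epithelial line. It read 5.90, 6.49 and 7.15 on TMA arrays 1 to 3 against 6.94, 6.38 and 6.70 on TDA arrays 1 to 3 (log2). Its mean over the 6 arrays, 6.59, lay under the filter at 7.01, with 16.1% of all probes dimmer. TMA3 was again the highest array and TMA1 the lowest, as for S100a8. The log2 difference was -0.16, and with no filter limma gave an adjusted p of 0.909.

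Markers of the white blood cells that carry calprotectin were read beside this pair. Of 14 neutrophil and macrophage markers, 12 were on the array and 4 were tested, with 0 called by limma and 1 at unadjusted p under 0.05, a share that was 19.3% over all tested genes. The summed linear signal of the 12 ran from 15660 to 35060 on the TMA arrays and from 39430 to 52000 on the TDA arrays, so it was lower on the TMA arrays. Cd14 and Ltf carried most of that sum, Ltf with a log2 difference of -1.22 (limma adjusted p = 0.118). Ptprc, Itgam, Lyz2, Tyrobp, Fcer1g, Mpo, Ngp and Camp, which define white blood cells, all lay below the filter, and the remaining tested markers, Csf1r and Cd14, differed by -0.31 and -0.60 and Elane by -0.0016. The epithelial markers, 7 on the array, had summed signals from 34710 to 59650 on the TMA arrays and from 24780 to 33210 on the TDA arrays, and 6 of them were tested with 0 called by limma and 3 at unadjusted p under 0.05. These 3 were the claudin genes Cldn4 and Cldn3 and the cadherin gene Cdh1, with differences of 1.90, 0.71 and 0.47 and limma adjusted p of 0.0577, 0.108 and 0.231. The groups of Cldn4 overlapped, with TMA1 at 12.16 under TDA2 at 12.31. Cldn4 was also the largest term of the epithelial sum on TMA2 and TMA3. The other tested markers, Krt18, Krt8 and Cldn7, differed by 0.29, 0.23 and -0.06, and Krt19 lay below the filter. Krt8 and Krt18, the keratins of simple epithelium, read between 12.66 and 13.597 (log2) on all 6 arrays. In bulk RNA a smaller share of cells with a transcript and less of it per cell cannot be told apart. The part of these marker shifts in the S100 differences was not tested.

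S100a4, the metastasis-associated member that binds non-muscle myosin, barely cleared the filter. It read 7.07, 7.24 and 7.30 on TMA arrays 1 to 3 against 7.40, 7.44 and 6.88 on TDA arrays 1 to 3 (log2). All TMA arrays lay within the TDA range, and TDA3 was the lowest array. The log2 difference was -0.04, with a 95% interval from -0.51 to 0.43 (limma adjusted p = 0.945). S100a4 also marks fibroblasts, and of 9 fibroblast markers on the array only Col1a2 and Vim passed the filter, with 0 called by limma and 0 at unadjusted p under 0.05. The summed signal of the 9 fibroblast markers was 1077 to 1256 on the TMA arrays and 1098 to 1289 on the TDA arrays.

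S100a14, a member found mainly in epithelia, and S100a16, whose gene adjoins it, did not pass the test. S100a14 lay near the filter and read 7.15, 7.24 and 7.33 on TMA arrays 1 to 3 against 7.54, 6.87 and 7.52 on TDA arrays 1 to 3 (log2), so TDA2 fell below and the other TDA arrays above the TMA group. Its log2 difference was -0.07, with a 95% interval from -0.56 to 0.42 (limma adjusted p = 0.920). S100a16 read 7.92, 7.77 and 7.60 on the TMA arrays against 7.95, 7.81 and 8.15 on the TDA arrays. TMA1 lay above TDA2, so its groups overlapped, and the log2 difference was -0.21, with a 95% interval from -0.65 to 0.22 (limma adjusted p = 0.643).

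**Figure D3:**
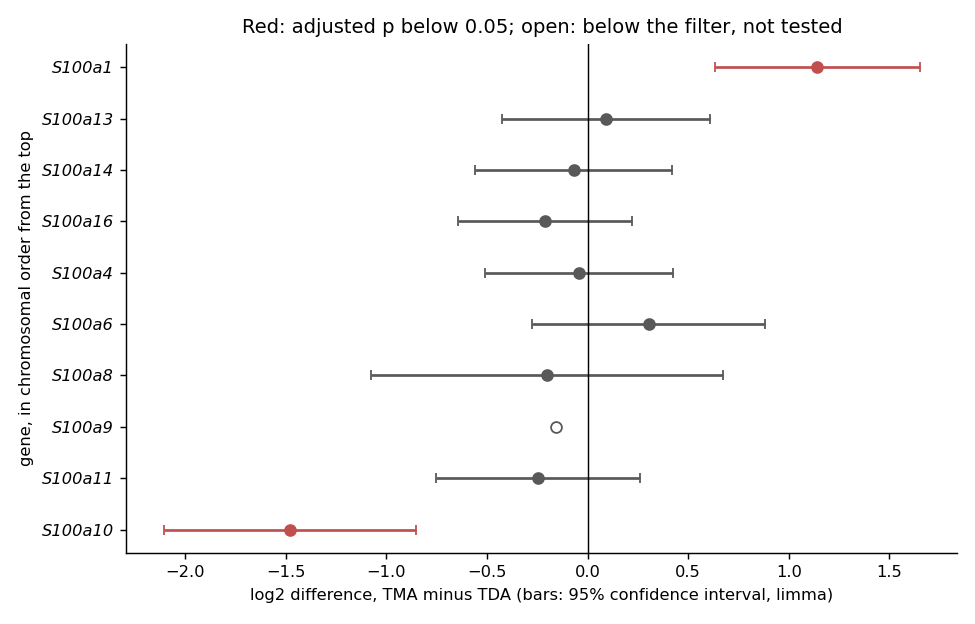
The log2 difference between TMA and TDA arrays is plotted for each S100 gene, ordered from the top as on chromosome 3, with bars for the limma 95% interval; red points have an adjusted p under 0.05 and the open point, S100a9, was not tested. The called genes S100a1 at 1.14 and S100a10 at -1.48 are the first and the last gene of the order, and every other tested interval spans 0.

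The other S100 genes on the array gave little to test. Of S100a3, S100a5, S100a7a, S100b and S100g, 0 entered the test, since their means lay below the filter. S100g, the intestinal calcium carrier calbindin-D9k, read 7.07, 7.12 and 6.99 on TMA arrays 1 to 3 against 6.31, 6.42 and 6.62 on TDA arrays 1 to 3 (log2), higher on every TMA array but too dim to be tested. S100pbp, which encodes a binding protein of S100P and not an S100 protein, was tested and differed by 0.02 (limma adjusted p = 0.972).

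Among genes whose products S100 proteins bind or signal through, 16 were on the array and 11 were tested. Of these 1 rose and 0 fell, while 1.72% of all tested genes were called higher and 1.71% lower. The median log2 difference of the list was 0.28, beside -0.0047 over all tested genes. The gene that rose was Myh9, the heavy chain of non-muscle myosin IIA and the filament that S100A4 disassembles. It read 12.60, 12.87 and 13.02 on TMA arrays 1 to 3 against 12.11, 11.75 and 11.92 on TDA arrays 1 to 3 (log2), with groups well apart. Its log2 difference was 0.90 (limma adjusted p = 0.0402). Ahnak, a giant scaffold protein that the S100a10 and annexin A2 complex anchors, differed by 0.62 and missed the threshold (limma adjusted p = 0.201). That is its brightest probe, and its other tested probes differed by -0.0087 and 0.21. The annexin genes Anxa1, Anxa5, Anxa6 and Anxa11 differed by 0.28, 0.40, 0.18 and 0.31, and none passed. The receptor genes Ager, which encodes RAGE, and Tlr4 differed by 0.17 and -0.17, both dim and not past the threshold. Myh9 missed the threshold whenever TMA2, TMA3, TDA1 or TDA3 was left out, and also with an offset of 16, with median scaling, with a trend and robust prior and in the unmoderated test.

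Among other proteins with EF-hands, 16 were tested, of which 0 rose and 1 fell, with a median log2 difference of 0.10. Over all tested genes 1.72% were called higher and 1.71% lower. Cetn3, a centrin of the centrosome, read 10.58, 10.87 and 10.87 on TMA arrays 1 to 3 against 12.23, 11.61 and 11.57 on TDA arrays 1 to 3 (log2). All TMA arrays lay below the lowest TDA array, and Cetn3 fell by 1.03 on the log2 scale (limma adjusted p = 0.0355). It missed the threshold without background correction, with an offset of 16, with median scaling, in the unmoderated test, and when any array but TDA2 was left out. Without TMA1 the genes Mcfd2 and Sdf4 passed instead. Of the 16, 6 had an unadjusted p under 0.05 in limma, or 37.5%, beside 19.3% of all tested genes. They were Cetn3 and, higher on the TMA arrays, Sdf4, Mcfd2, Hpcal1, Chp1 and Calu. At their brightest probes the latter differed by 0.84, 0.78, 0.745, 0.47 and 0.46. None of them passed, with limma adjusted p of 0.0567, 0.0865, 0.170, 0.226 and 0.246. The calmodulin genes Calm2 and Calm3 differed by 0.46 and -0.33, neither past the threshold.

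Genes that sit near the family on chromosome 3 were read as well. Of 12 tested non-S100 neighbours, 1 fell and 0 rose, with a median log2 difference of -0.001. The shares called over all tested genes were 1.71% lower and 1.72% higher. Ilf2, a subunit of an RNA-binding complex, read 10.27, 9.80 and 9.68 on TMA arrays 1 to 3 against 10.93, 10.80 and 10.79 on TDA arrays 1 to 3 (log2), and fell by 0.92 on the log2 scale (limma adjusted p = 0.0414). It missed the threshold without TMA2, TMA3, TDA1 and TDA3, each left out alone, with an offset of 16, with median scaling and in the unmoderated test. The epidermal differentiation complex, the skin barrier genes that separate the S100 groups on the chromosome, lay mostly below the filter. Of its 17 genes on the array 4 were tested, 0 were called by limma and 0 had an unadjusted p under 0.05. Sprr1a differed by 0.23 and Sprr2a1, at its brightest probe, by -0.15. The other tested probe of Sprr2a1 differed by -0.40, with groups that did not overlap (limma adjusted p = 0.270).

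Antimicrobial and acute phase genes are often measured with calprotectin. Of 10 tested, limma called 0, while 2 reached an unadjusted p under 0.05, and the median log2 difference was 0.12. Those with a p under 0.05 were Socs3, a feedback inhibitor of cytokine signalling, at 0.94 (limma adjusted p = 0.0548), and Ltf, lactoferrin, and over all tested genes that share was 19.3%. Socs3 passed without TMA1, without TDA2, with the replicate block, with a trend and robust prior and with array quality weights. The secretory protease inhibitor gene Slpi passed with it without TDA2 and with array quality weights, and Cxcl1, a neutrophil chemokine, in the latter. Lcn2, lipocalin 2, reached the top value of the normalized scale, 16.10, on 5 of 6 arrays, so its difference of 0.06 cannot be read.

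**Figure D4:**
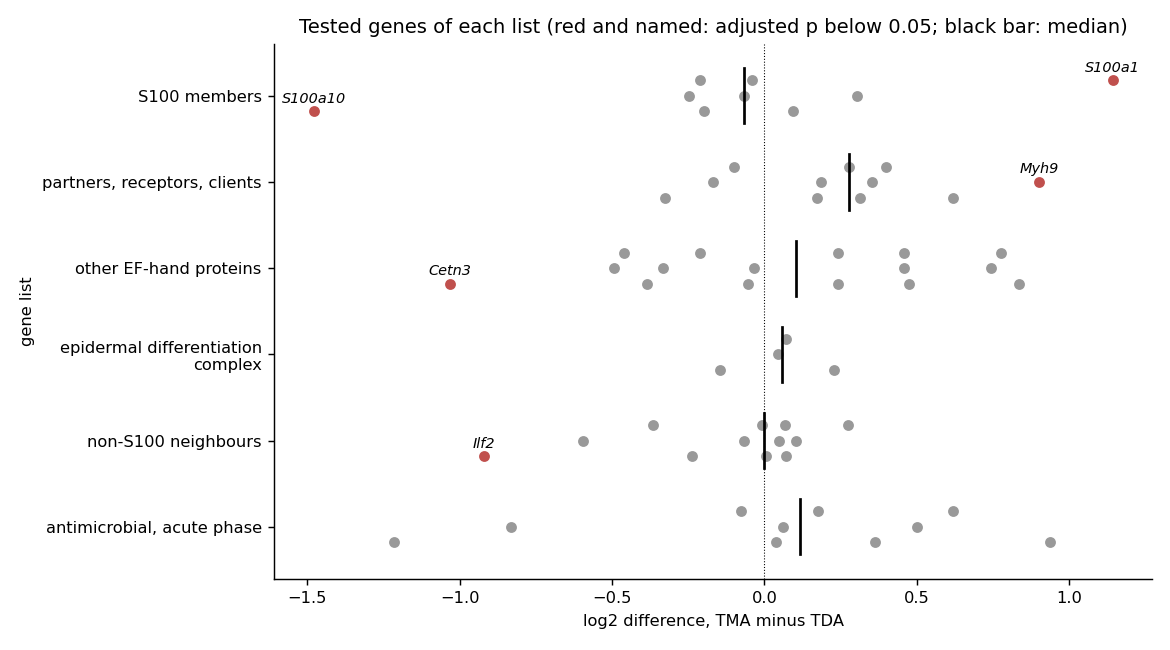
Each point is a tested gene, placed by its log2 difference (TMA minus TDA, horizontal axis) within its list (vertical axis), with black bars for list medians; named red points have a limma adjusted p under 0.05. S100a1 and S100a10 lie outside the other S100 members, which stay between -0.25 and 0.30.

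The genes whose signal ran most like that of the called members were found by Pearson correlation over the 6 arrays, a description only, since the groups are set apart and few arrays allow many high values. For S100a1 they were Ap2a2, Trim56 and Ppp1r9b, with r of 0.993, 0.992 and 0.989. Trim56, a ubiquitin ligase of antiviral signalling, differed by 0.99 (limma adjusted p = 0.0307), while Ap2a2, an adaptor of endocytosis, and Ppp1r9b, an actin-binding scaffold, differed by 0.29 and 0.40 and did not pass. For S100a10 they were Timeless, Snrpd1 and Mrps2, with r of 0.994, 0.993 and 0.992. Timeless, a protein of the replication fork, read 8.35, 6.72 and 7.61 on TMA arrays 1 to 3 against 9.63, 8.88 and 9.51 on TDA arrays 1 to 3 (log2), with TMA2 lowest as for S100a10. It fell by 1.78 on the log2 scale (limma adjusted p = 0.0234), the spliceosome gene Snrpd1 fell by 1.28 (limma adjusted p = 0.0248), and Mrps2, of the mitochondrial ribosome, differed by -0.62 (limma adjusted p = 0.142).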

How the data were processed

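Total RNA came from Trizol extraction and was labelled after Illumina's standard protocol, per the labels. The authors deposited a table of non-normalized signal intensity (lowest value 147.5, so no background had been subtracted) and a table of log2 values that had been normalized between arrays, the method being not given in the sources used here. Rank correlations between them were at least 0.999 on each array. Intensities were corrected with normexp (offset 50), quantile-normalized and taken to log2 in limma 3.58.1 under R 4.3.3. Of 25697 probes, 23846 had 1 gene symbol, 0 had several and 1851 were unnamed here. Probes with a mean above the median, 12848 in all, were fitted with lmFit and moderated by eBayes. Two-sided p-values were adjusted by Benjamini-Hochberg over all of them, at a threshold of 0.05. A gene was read from its tested probe with the highest mean. The procedure was tested on simulated data with independent normal noise and no array effects. That test does not bear on how far calls rest on single arrays. The text names all members, up to 3 called genes of each of 6 lists or the 2 with the smallest p, and the 3 genes most correlated with each called member; others were named after their values were seen. The members and lists were chosen with earlier results of these data known. The main fit did not pair arrays by replicate number.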

Additional observations from a re-analysis of the deposited data

How the results depend on the processing

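The S100a1 and S100a10 differences kept their direction in each of 18 alternatives, and their limma adjusted p ranged from 0.00171 to 0.252 and from 0.000364 to 0.283. Of 9 tested members, 2 were called; 1 was called without background correction, and 0 in the authors' log2 table, with median scaling and in an unmoderated test, where 3, 2 and 2 members had an unadjusted p under 0.05. Leaving out 1 array gave 0 to 2. Probes called numbered 387, and 129 with median scaling, 198 without background correction, 135 from the authors' values, 232 with the stricter filter, 1906 with array quality weights, 0 in the unmoderated test (1793 at unadjusted p under 0.05), and 3 to 682 with 1 array left out. Genes called over the 6 lists together numbered 3, and 0 with an offset of 16, with median scaling and in the unmoderated test, 11 with array quality weights, and 0 to 5 with 1 array left out. Signs turned, with no call, for 4 members. With 1 array left out, the log2 difference ran from -0.76 to 0.14 for S100a8, from -0.22 to 0.0591 for S100a4, from -0.29 to 0.0478 for S100a14 and from -0.16 to 0.26 for S100a13, and S100a8 was at 0.31 with array quality weights. The cause of these changes was not tested. With the replicate number as a block, 518 probes and 2 members were called. Deviations of same-numbered arrays from their group means correlated at 0.126, 0.0133 and 0.0269. With so few arrays these values cannot settle whether the numbers pair the arrays. The array names share 1 number and end in the letters A to C for TMA and D to F for TDA. The labels do not say what the number and letters stand for. Whatever follows the letters cannot be told apart from the group.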
